A study of Mus musculus with 6 samples.

Results

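H/ACA box small nucleolar RNAs (snoRNAs) were examined in hippocampal RNA bound to phosphorylated tau. They were taken as the RNAs whose name in the authors' deposited table starts with Snora and a digit, which gave 6 of 2380 named RNAs: Snora35, Snora7a, Snora21, Snora33, Snora65 and Snora57. Each was represented by 1 probe. The study compared PS19 mice, which carry a mutant human tau transgene, with wild-type (WT) mice, with 3 hippocampal samples per genotype. Homogenised tissue was crosslinked with UV light and complexes were pulled down on magnetic beads with an antibody to tau phosphorylated at the site labelled pS396. On each 2-colour array the pulled-down RNA (CLIP) was in the red Cy5 channel and the unbound RNA of the supernatant was in the green Cy3 channel, with no dye swap. The PS19 transgene is driven by the mouse prion promoter and adds human tau to the mouse's own, which both genotypes keep. The labels give neither age, sex nor the number of animals behind a sample, and no pull-down with a control antibody is among the samples.

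H/ACA snoRNAs are short nuclear RNAs of 2 hairpins that form particles with dyskerin and its partners. The particle's pseudouridine synthase converts a uridine, chosen by base pairing with the snoRNA, to pseudouridine, mostly in ribosomal RNA. In mammals they are usually cut from introns of protein-coding genes, often genes of ribosomal proteins, so that host and snoRNA come from the same transcript. Snora35, also known as MBI-36, is unlike most of the family in that it is known for expression in brain, choroid plexus included, and has no established ribosomal target.

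All 6 snoRNAs were found by symbol in the RefSeq gene table of assembly GRCm38.p6, and all 6 lie within a protein-coding gene there. Snora35 (119 nucleotides, chromosome X) lies in Htr2c, which encodes a serotonin receptor expressed in neurons and choroid plexus. The other hosts of chromosomes 6, 11, 10 and 2 encode ribosomal proteins. Snora7a (129 nucleotides) lies in Rpl32 on chromosome 6, and Snora21 (128 nucleotides) lies in Rpl23 on chromosome 11. Snora33 (105 nucleotides) lies in Rps12 on chromosome 10, and Snora65 (118 nucleotides) lies in Rpl12 on chromosome 2. Snora57 (150 nucleotides) lies in Lbhd1, and in the overlapping noncoding gene 5730408K05Rik, on chromosome 19. The probe sequences were not used here, so that a probe's reaction with near-identical snoRNA copies, with snoRNA fragments or with the host's intron was not examined.

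The arrays carried 14192 probes. Between 10.6% and 49.4% of them per array were well above background in red, by the scanner software's own call, and 35.5% to 63.2% were in green. No spot was saturated. The file headers place PS19 1 and WT 2 in the same scan and PS19 2 and PS19 3 in another, while WT 1 and WT 3 were scanned alone at other scanner voltages. CLIP levels correlated by 0.964 to 0.977 between arrays of the same scan and by at most 0.852 between arrays of different scans. Of 6 neuronal marker microRNAs, 4 were named on the array and 2 of those were well above background in the supernatant on all 6 arrays. Of 6 choroid plexus markers 4 were named, and 2 were well above background there. None of the microglial and none of the endothelial markers was named. Processed signals below are the authors' values for a spot, corrected for background and dye within an array. Levels are log2 processed signals after scaling to each array's 75th percentile, and differences between genotypes are PS19 minus WT relative to that of the median RNA, since the CLIP level of the median RNA itself was 0.85 higher in PS19. The limma p-values of level differences, adjusted or not, test the difference before that subtraction.

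Snora35 had less signal on the 3 PS19 arrays than on WT 1 and WT 3 in both fractions, and about the same signal on PS19 1 and on WT 2, the pair that shared a scan. Its CLIP signal was 8626, 19428 and 13126 on the PS19 arrays, against 57012, 9803 and 38322 on the WT arrays. Its supernatant signal was 12538, 12420 and 11640 on the PS19 arrays, against 68568, 14218 and 35544 on the WT arrays. All 12 spots were well above background. The supernatant signals of PS19 therefore lay close together, with the highest 1.08 times the lowest, whereas the highest WT signal was 4.82 times the lowest. The WT 2 spot was marked as an outlier by the scanner software in both channels and was left out of the tests, so that 2 WT values remained.

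**Figure D1:**
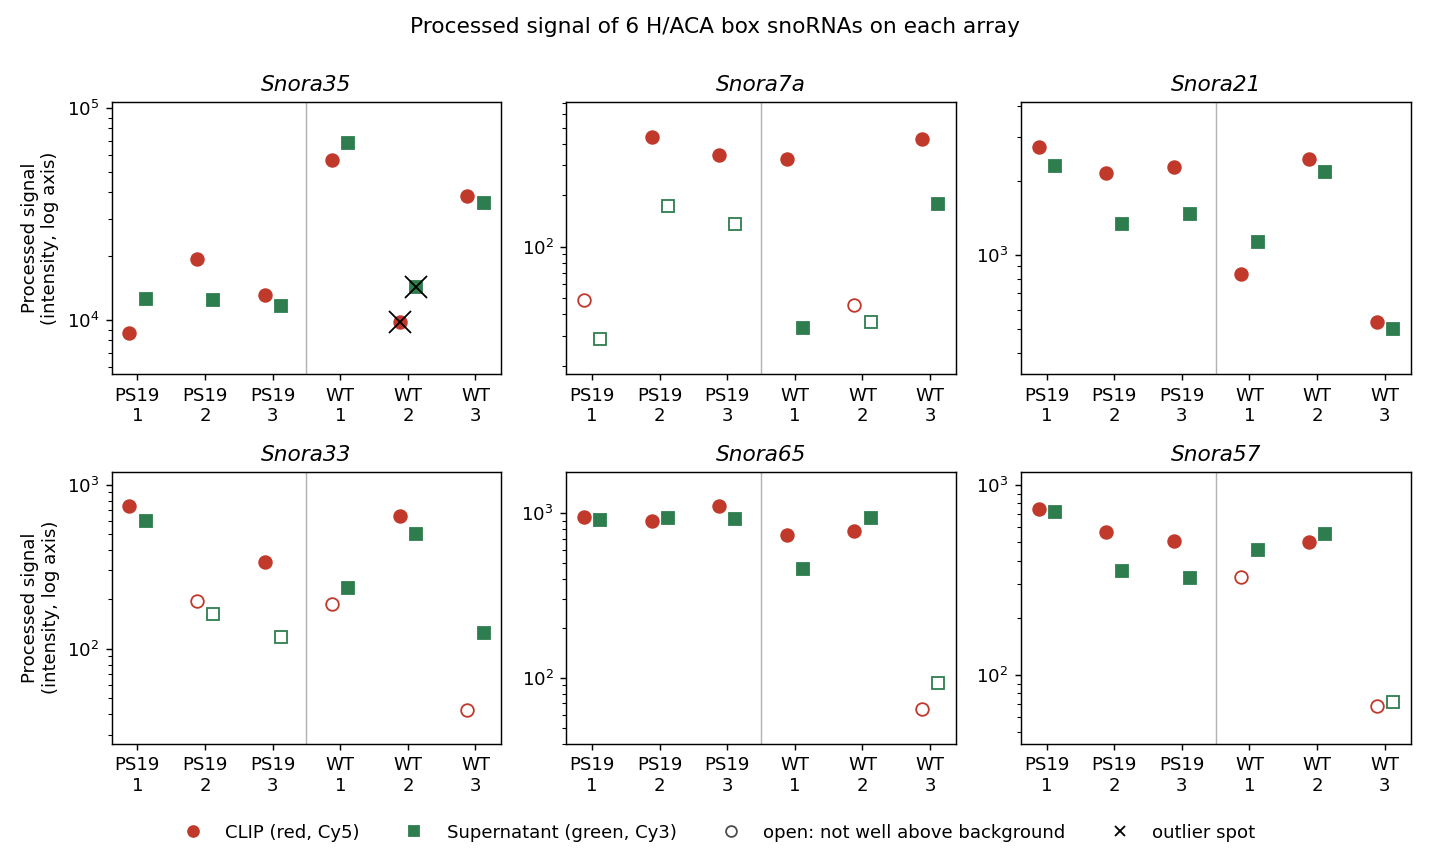
Processed signal (intensity, log axis) of each of the 6 H/ACA snoRNAs on the 3 PS19 and the 3 WT arrays, with CLIP RNA as red circles and supernatant RNA as green squares. Open symbols were not well above background and a cross marks an outlier spot; Snora35 is highest on WT 1 and WT 3, while Snora21, Snora65 and Snora57 are lowest on WT 3.

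After scaling, the CLIP level of Snora35 averaged 0.54 ± 0.55 in PS19 (SD, n = 3) and 2.86 ± 1.38 in WT (SD, n = 2). The difference relative to the median RNA was -3.17, with a standard error of 1.16 and a 95% interval of -5.44 to -0.89. The values did not overlap, PS19 being lower, as was the case for 0.934% of the 2356 RNAs tested. Most of those RNAs had 3 values per genotype. With only 2 WT values, as for Snora35, groups separate more easily, so the share is not a like one. Before the median RNA's difference was subtracted the Snora35 difference was -2.32, and limma's test of that value gave an adjusted p of 0.773 and an unadjusted p of 0.0457. Beside this, 0.255% of RNAs were lower in PS19 with an unadjusted p under 0.05. None of the 6 snoRNAs passed the adjusted threshold of 0.05 in the CLIP level, nor did any of the 2356 RNAs (0%), of which 51 had an unadjusted p under that threshold. In the supernatant the scaled level averaged 2.58 ± 0.36 in PS19 (SD, n = 3) and 5.99 ± 1.56 in WT (SD, n = 2). The difference there was -3.51 (standard error 0.72, 95% interval -5.31 to -1.71), the lowest among 3727 RNAs tested. Again the values did not overlap, as in 3.01% of RNAs with PS19 lower, a share with the same limit. The limma test of the difference before that subtraction, -3.41, gave an unadjusted p of 0.00409 and an adjusted p of 0.928. Here 1.05% of RNAs were lower with an unadjusted p under 0.05. None of the 5 snoRNAs tested in the supernatant passed, nor did any of the 3727 RNAs (0%), of which 104 had an unadjusted p under 0.05. Whether a sample held fewer cells that make Snora35 or less Snora35 per cell cannot be told apart in bulk tissue.

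The difference in Snora35 rested on WT 1 and WT 3. With the outlier spot of WT 2 kept, the scaled CLIP levels were -0.07, 1.08 and 0.43 in PS19, against 3.03, -0.02 and 1.36 in WT 1, WT 2 and WT 3. In the supernatant they were 2.08, 2.90 and 2.61 in PS19, against 7.09, 2.21 and 4.79 in the same WT arrays. With that spot the genotypes overlapped in both fractions, because WT 2 lay among the PS19 arrays. The differences were then -2.26 in the CLIP level and -2.28 in the supernatant. Within the scan that held both genotypes, PS19 1 minus WT 2 was -0.22 in the CLIP level and -0.18 in the supernatant, inside the standard deviations of 0.38 and 0.45 over RNAs between the same arrays. Without WT 1 the CLIP difference was -1.96, and under quantile normalisation the differences were -1.39 in the CLIP level and -1.26 in the supernatant. Outside that pair, the genotypes cannot be told apart from the scans. The ratio of CLIP to supernatant, which is taken within an array, did not separate the genotypes: centred on each array's median it was -0.55, 0.65 and 0.16 (log2) in PS19, against 0.12 in WT 1 and 0.34 in WT 3.

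**Figure D2:**
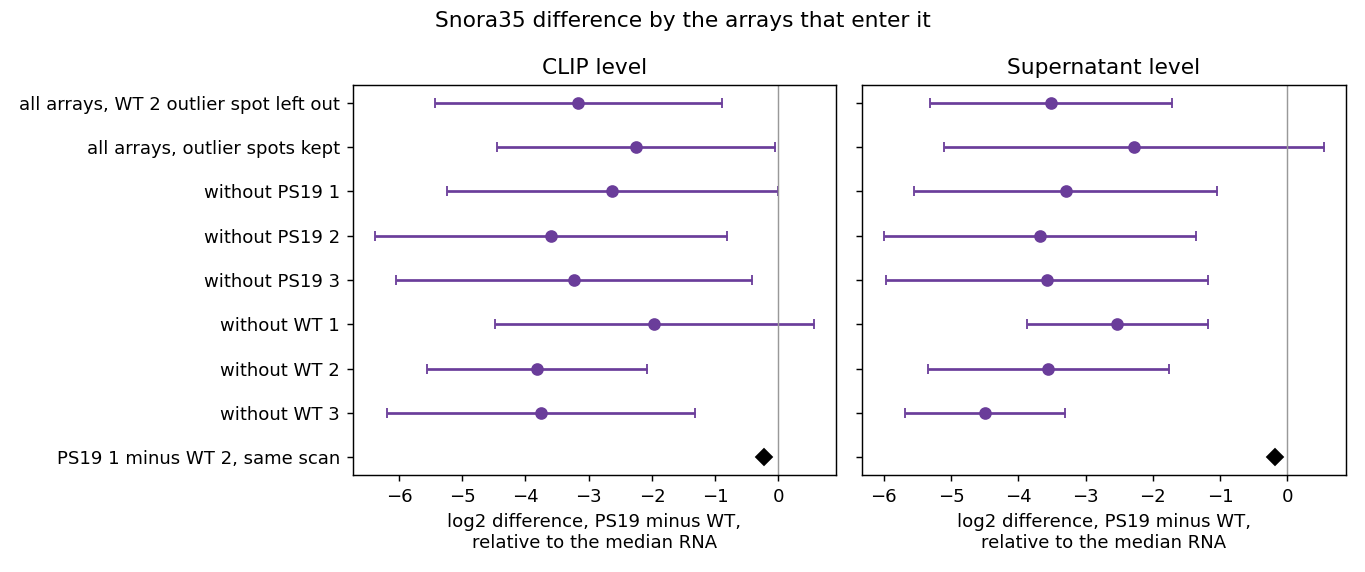
Difference in Snora35 between PS19 and WT (log2, relative to the median RNA) in the CLIP and supernatant levels, with 95% limma intervals, for all arrays, with outlier spots kept and without each array. The diamond is PS19 1 minus WT 2, the pair of 1 scan, with no interval; it lies at -0.22 and -0.18, while the fits with all arrays lie between -3.51 and -2.26.

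The 5 other small RNAs encoded within Htr2c that were named on the array were set beside Snora35 after its values had been seen. Their sequences are given because they are the other products of the same gene measured here. The mature microRNAs are from RefSeq (GRCm38.p6, chromosome X), with the seed, bases 2 to 8, in capitals. The probe for mmu-mir-448 carries the precursor's name, and its hairpin is printed with the mature arms in capitals.
mmu-miR-764-3p: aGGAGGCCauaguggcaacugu
mmu-miR-1912-3p: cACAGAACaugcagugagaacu
mmu-miR-1298-3p: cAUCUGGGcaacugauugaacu
mmu-miR-1298-5p: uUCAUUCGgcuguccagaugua
mmu-mir-448: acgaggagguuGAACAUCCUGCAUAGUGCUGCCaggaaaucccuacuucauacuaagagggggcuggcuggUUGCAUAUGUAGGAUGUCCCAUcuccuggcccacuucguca

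No 2 of the 4 mature microRNAs shared a seed. None of the 5 followed Snora35 across the arrays. The supernatant signal of mmu-miR-1298-3p was 630.4, 440.9 and 393.0 on the PS19 arrays, against 85, 745 and 122.9 on the WT arrays. It was low on WT 1 and WT 3, where Snora35 was high, but those arrays were scanned at other voltages. After scaling, the supernatant level of mmu-miR-1298-3p averaged -2.09 in PS19 and -2.59 in WT. The supernatant signal of mmu-mir-448 was 6524, 3991 and 2942 in PS19, against 7022, 4621 and 668.4 in WT, so that WT 3 was the low array and WT 1 the high one. Supernatant differences relative to the median RNA were -0.25 for mmu-miR-764-3p, -0.05 for mmu-miR-1912-3p, 0.40 for mmu-miR-1298-3p, 0.08 for mmu-miR-1298-5p and -0.26 for mmu-mir-448. The limma adjusted p of the same differences before the median RNA's was subtracted lay between 0.928 and 0.983. The summed supernatant level of the 4 choroid plexus markers was 0.17, 0.12 and -0.16 (log2) in PS19, against -0.56, -0.13 and -0.63 in WT, with WT 2 inside the PS19 range. The summed level of the 2 blood markers named, of 5 listed, ran from -0.89 to -0.56 in PS19 and from -2.59 to -1.07 in WT, without overlap. Only 1 of these 2 was well above background on all 6 arrays, and WT 3 alone gave the -2.59, with -1.13 on WT 1. Beside this, 7.32% of the 3727 RNAs tested in the supernatant did not overlap with PS19 higher. The 1 oligodendrocyte marker named ran from -2.10 to -1.82 in PS19 and from -3.81 to -2.04 in WT, with overlap, and the 4 neuronal markers from -0.60 to 0.03 in PS19 and from -0.77 to 0.59 in WT. The part of these cell types in the Snora35 values was not tested.

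**Figure D3:**
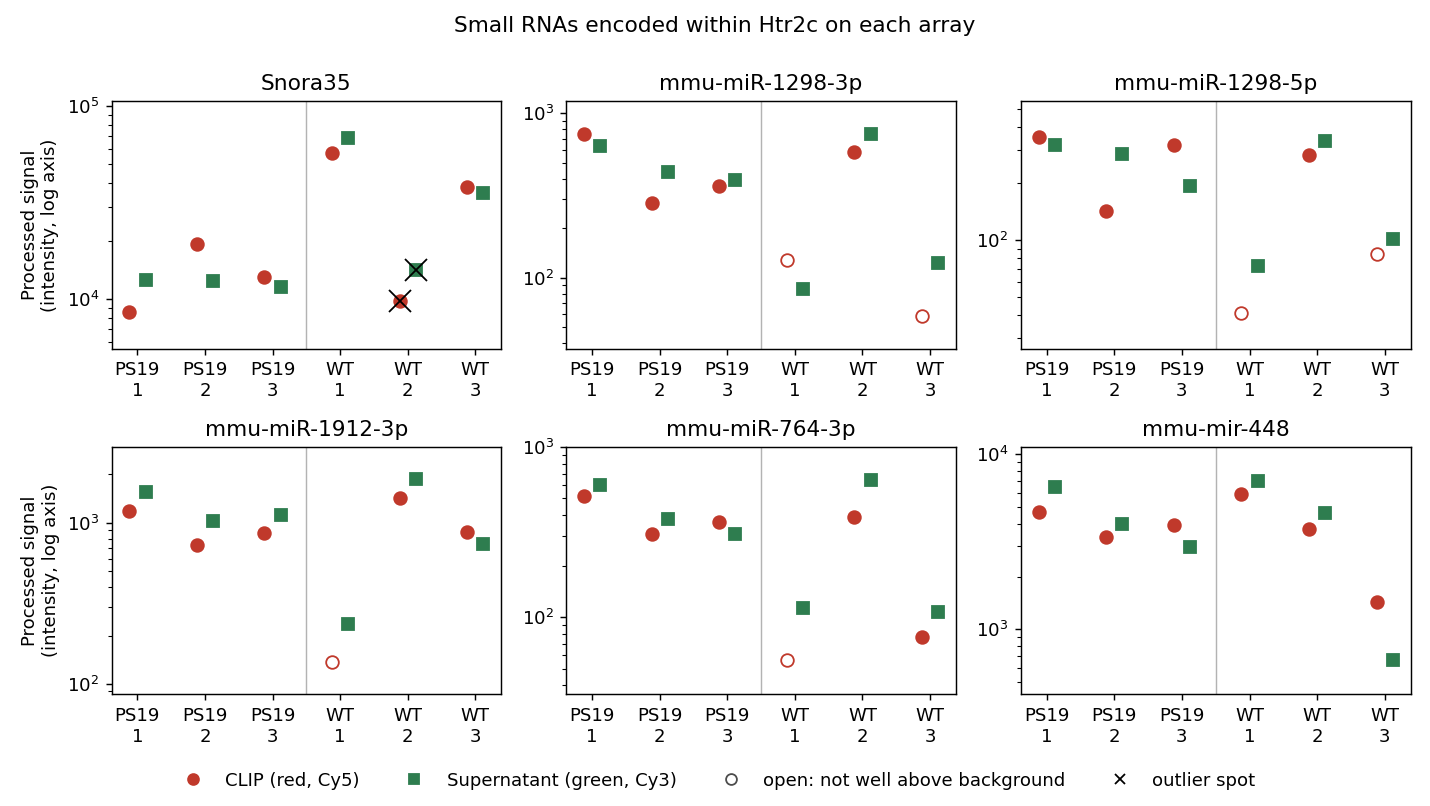
Processed signal (intensity, log axis) of Snora35 and of the 5 other small RNAs of Htr2c on the 3 PS19 and the 3 WT arrays, CLIP in red and supernatant in green, with open symbols where not well above background. Snora35 is high on WT 1 and WT 3, and the 4 mature microRNAs have their lowest supernatant signals on those arrays. The signals are not scaled between arrays, and WT 1 and WT 3 were scanned at other voltages.

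Snora7a, which in human guides a modification of the large-subunit ribosomal RNA, had CLIP signal well above background on 4 arrays and supernatant signal on only 2. Its CLIP signal was 48.9, 440.7 and 344.3 on the PS19 arrays, against 326.3, 45.5 and 431.1 on the WT arrays. On each side 2 of 3 spots were well above background, and the low arrays were PS19 1 and WT 2, which shared a scan. Its supernatant signal was 28.7, 174.4 and 136.2 in PS19, none of them well above background, against 33.1, 36.0 and 177.8 in WT, of which WT 1 and WT 3 were. The centred log2 ratio was 0.76, 1.34 and 1.32 in PS19, against 3.68, 0.36 and 1.51 in WT. On PS19 1 and WT 2 neither fraction was well above background, so that the ratio there has no settled sign, and only on WT 1 and WT 3 were both.

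The mean ratio of Snora7a was 1.14 ± 0.33 in PS19 and 1.85 ± 1.69 in WT (SD, n = 3 each). The limma adjusted p against 0 was 0.717 in PS19 and 0.522 in WT, with unadjusted values of 0.0757 and 0.0112. In WT, 4.36% of RNAs were above 0 with an unadjusted p under 0.05. Snora7a met the filter of the ratio through its CLIP signal alone, which favours a ratio above 0. These tests against 0 are therefore no support for a higher signal in CLIP. Since no PS19 supernatant spot was well above background, the PS19 ratio has only a bound: CLIP over supernatant was at least 1.61-fold above the array median. That bound is not strict, because CLIP was well above background on 2 of the 3 PS19 arrays, and it is open to dye bias. Leaving out WT 1, whose supernatant signal was 33.1, brought the WT mean to 0.94. The PS19 minus WT difference in the ratio was -0.71, and it was 0.20 without WT 1. The CLIP level differed by -1.10 relative to the median RNA (95% interval -3.13 to 0.93), and by 0.14 without PS19 1. The limma adjusted p of 0.883 is that of the difference before the median RNA's was subtracted, -0.25. The supernatant level was not tested because only 2 arrays were well above background.

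Snora21, whose human counterpart is also assigned to the large-subunit ribosomal RNA, was well above background in both fractions on all 6 arrays. Its CLIP signal was 2726, 2151 and 2259 on the PS19 arrays, against 834.1, 2442 and 534.3 on the WT arrays. Its supernatant signal was 2286, 1335 and 1459 in PS19, against 1128, 2173 and 502.3 in WT. In these unscaled signals WT 2 lay within the PS19 range in both fractions, and WT 1 and WT 3 lay below it. Scaled supernatant levels were -0.24, -0.30 and -0.39 in PS19, against 1.17, -0.38 and -1.26 in WT. There WT 1 was the highest array. After scaling, the CLIP level averaged -1.92 ± 0.27 in PS19 and -2.80 ± 1.30 in WT (SD, n = 3 each), and the genotypes overlapped. Relative to the median RNA the difference was 0.03 (95% interval -2.0 to 2.06) in the CLIP level. It was -0.25 in the supernatant (95% interval -1.74 to 1.24). Before the median RNA's difference was subtracted these were 0.88 and -0.15, with a limma adjusted p of 0.773 and 0.972.

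The centred ratio of Snora21 was 0.24, 0.69 and 0.61 (log2) in PS19, against -0.06, 0.19 and 0.32 in WT. PS19 averaged 0.52 ± 0.24 and WT 0.15 ± 0.19 (SD, n = 3 each). PS19 2 and PS19 3, the pair from 1 scan, had the highest ratios, and PS19 1 lay among the WT arrays. Against 0, the PS19 mean had an unadjusted limma p of 0.0467 and an adjusted p of 0.707, beside 3.1% of RNAs above 0 in PS19 with an unadjusted p under 0.05. The difference between genotypes was 0.36 with a standard error of 0.31 (limma adjusted p = 0.992). When the ratio was centred on the median of all RNAs on the array, a setting chosen after seeing the data, the genotypes of Snora21 did not overlap, with 0.22 to 0.65 in PS19 and -0.42 to 0.08 in WT. Under that centring 11.4% of RNAs did not overlap with PS19 higher.

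Snora33, another guide of the large-subunit ribosomal RNA in human, was near background on several arrays. Its CLIP signal was 742.0, 194.6 and 337.1 on the PS19 arrays, against 187.3, 645.4 and 42.6 on the WT arrays, and was well above background on PS19 1, PS19 3 and WT 2. Its supernatant signal was 603.5, 162.2 and 117.2 in PS19, of which only PS19 1 was well above background, against 235.2, 502.4 and 124.6 in WT, all well above background. The arrays of the shared scan, PS19 1 and WT 2, had the highest unscaled signal in both fractions. After scaling, WT 1 had the highest supernatant level, at -1.09. The difference relative to the median RNA was -0.09 in the CLIP level (95% interval -2.12 to 1.94) and -0.99 in the supernatant (95% interval -2.70 to 0.72). Before the median RNA's difference was subtracted these were 0.76 and -0.89, with a limma adjusted p of 0.773 and 0.928. The centred log2 ratio was 0.29, 0.27 and 1.51 in PS19, against 0.05, 0.38 and -1.31 in WT. The difference of 0.98 between their means (standard error 0.56, limma adjusted p = 0.992) rests on spots not well above background in 1 or both fractions on PS19 2, PS19 3, WT 1 and WT 3. It was 0.47 without WT 3, where CLIP was near background, and -0.10 within the scan that held both genotypes.

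Snora65, known as a large-subunit guide in human, had steady signals in PS19 and a low WT 3. Its CLIP signal was 943.2, 894.3 and 1104 on the PS19 arrays, against 735.6, 777.6 and 64.4 on the WT arrays. Its supernatant signal was 909.8, 938.4 and 925.2 in PS19, against 458.6, 934.0 and 92.7 in WT. In the supernatant the highest PS19 signal was 1.03 times the lowest, and the highest WT signal was 10.1 times the lowest. WT 3 was the only array not well above background, in both fractions. The difference relative to the median RNA was 0.38 in the CLIP level (95% interval -1.65 to 2.41) and 0.57 in the supernatant (95% interval -1.54 to 2.68). Without WT 3 they were -0.69 and -0.26. With all arrays and before the median RNA's difference was subtracted, they were 1.23 and 0.67, with a limma adjusted p of 0.773 and 0.928. The centred ratio was 0.04, -0.07 and 0.24 in PS19, against 1.06, -0.24 and -0.29 in WT, a difference of -0.11 (standard error 0.43, limma adjusted p = 0.992), with WT 1 above the other arrays.

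Snora57 is assigned in human to the small-subunit ribosomal RNA, unlike the other guides here. Its CLIP signal was 743.2, 567.5 and 508.5 on the PS19 arrays, all well above background, against 326.4, 501.0 and 68.6 on the WT arrays, of which only WT 2 was. Its supernatant signal was 724.7, 350.7 and 325.3 in PS19, against 455.4, 554.0 and 72.3 in WT, and only WT 3 was not well above background. The unscaled CLIP signals of the genotypes did not overlap, PS19 being higher (508.5 at the lowest, against 501.0 at the highest in WT), as in 5.09% of the 2356 RNAs tested. The scaled levels overlapped: -3.48, -3.97 and -4.26 in PS19, against -3.62, -4.14 and -7.25 in WT. The difference relative to the median RNA was 0.25 in the CLIP level (95% interval -1.78 to 2.28, limma adjusted p = 0.773) and -0.14 in the supernatant (95% interval -2.41 to 2.13, limma adjusted p = 0.995). Without WT 3 the CLIP difference was -0.49. Its centred ratio was 0.02, 0.70 and 0.63 in PS19, against -0.10, -0.12 and 0.16 in WT, a difference of 0.47 (standard error 0.32, limma adjusted p = 0.992). As for Snora21, PS19 2 and PS19 3 were the high arrays and PS19 1 lay among the WT arrays. Centred on all RNAs, the setting chosen after seeing the data, the Snora57 ratios did not overlap, from 0.00 to 0.66 in PS19 and from -0.47 to -0.23 in WT, beside the 11.4% of RNAs that did not overlap with PS19 higher under it.

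**Figure D4:**
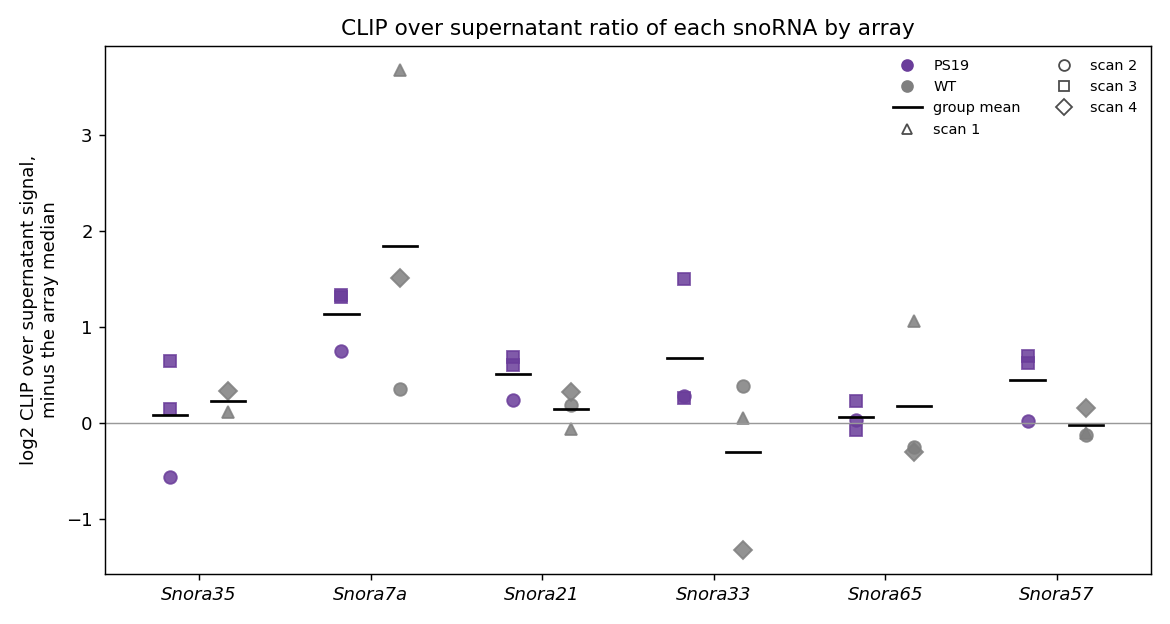
Centred log2 ratio of CLIP over supernatant signal for each snoRNA on each array, PS19 in purple left of WT in grey, with the symbol giving the scan and the bar the group mean; the Snora35 outlier spot of WT 2 is left out. Snora7a on WT 1 is at 3.68, and the PS19 and WT values overlap for all 6 snoRNAs.

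No snoRNA of the 6 passed in the PS19 minus WT ratio, nor did any of the 3971 RNAs tested (0%), of which 165 had an unadjusted p under 0.05 in limma. The genotypes overlapped for all 6 in the ratio as centred here, while 4.13% of RNAs did not overlap with PS19 higher and 4.78% with PS19 lower. The centred ratio was above 0 on all 3 PS19 arrays for 4 of the 6, beside 16.1% of RNAs: for Snora21 and Snora57, with both fractions well above background throughout, and for Snora7a and Snora33, with spots that were not. On all 3 WT arrays it was above 0 for 1 of the 6, Snora7a, with neither fraction well above background on WT 2, beside 14.2% of RNAs. Snora7a met the filter of the ratio through its CLIP signal alone, which favours a ratio above 0. The median ratio of the 6 was 0.48 in PS19 and 0.16 in WT, beside -0.02 in PS19 and -0.02 in WT over all RNAs. The 5 C/D box snoRNAs (names with Snord), which guide methylation of ribosomal RNA, had medians of 0.40 in PS19 and 0.69 in WT. The other RNAs typed as snoRNAs in the gene table, of which 130 were tested for the ratio, had medians of 0.22 in PS19 and 0.38 in WT. The medians of 163 precursor microRNAs, which are not snoRNAs, were 0.21 in PS19 and 0.39 in WT. Against 0, none of the 6 passed in PS19, where 4 of 3971 RNAs did (0.101%). None passed in WT, where 3 did (0.0755%).

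In the CLIP level the median difference of the 6 relative to the median RNA was -0.03, with 3 above and 3 below it. The 5 C/D box snoRNAs had a median of -0.50 and the 133 other snoRNAs tested a median of -0.48. For 167 precursor microRNAs it was -0.51. In the supernatant the median of the 5 H/ACA snoRNAs tested was -0.25, with 1 above the median RNA. Beside this, it was -0.15 for the C/D box snoRNAs, -0.30 for 128 other snoRNAs and -0.19 for 161 precursor microRNAs. No other H/ACA RNA of the kinds listed for comparison, the Cajal body RNAs (names with Scarna) and telomerase RNA (Terc), was named.

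**Figure D5:**
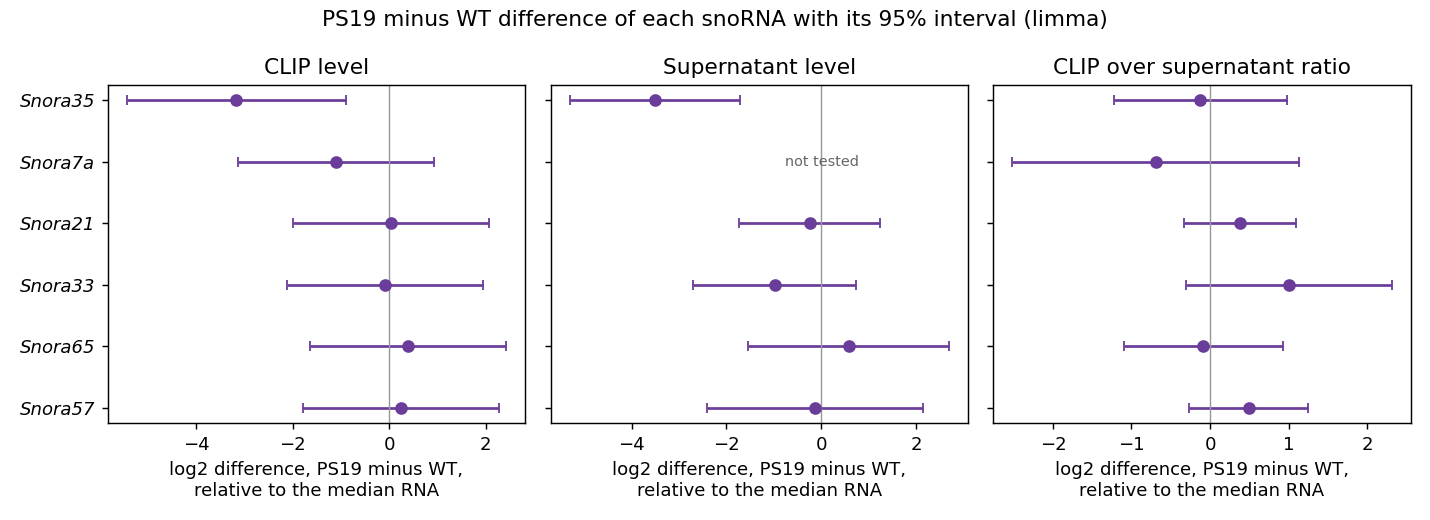
PS19 minus WT difference of each H/ACA snoRNA (log2, relative to the median RNA) with its 95% limma interval in the CLIP level, the supernatant level and the ratio of CLIP to supernatant. Only the Snora35 intervals of the CLIP and supernatant levels leave out 0. Its limma adjusted p, for the difference before the median RNA's was subtracted, was 0.773 and 0.928. Snora7a was not tested in the supernatant.

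The authors' deposited table compares the CLIP signal of the genotypes, scaled to spike-in probes. In the authors' deposited table the log2 fold change of PS19 over WT was -2.21 for Snora35, -1.05 for Snora7a, 0.43 for Snora65, 0.30 for Snora57, 0.08 for Snora21 and -0.04 for Snora33. The p-values of the authors' deposited table were 0.305 for Snora35 and 0.692 for Snora7a, with an adjusted value of 0.999 for each of the 6. Of the 2380 names in the authors' deposited table, 57 had a p under 0.05 and 0 an adjusted value under it. The signs were those of the CLIP differences relative to the median RNA here, where the spot of Snora35 on WT 2 was left out and in the authors' table kept.

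Across the 12 scaled levels of the 6 arrays, CLIP and supernatant, the median profile of the 6 snoRNAs was most like those of mmu-mir-718, Leu-AAG-1 and Gm24616, with a Pearson correlation of 0.986 each, Gm26074 with 0.984 and mmu-mir-1963 with 0.98. The median correlation over the 2161 RNAs compared was 0.766, and all of these values share the arrays, the scans and the gap between fractions. Snora21, Snora33, Snora57 and Snora65 correlated with each other by 0.84 to 0.97. Snora7a correlated with those 4 by -0.13 to 0.11, and Snora35, with 10 values, by 0.41 to 0.55. The nearest RNAs of Snora35 were mmu-miR-5616-3p with 0.965 and Gm24411 with 0.956, while its median correlation over the RNAs compared was 0.35.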

How the data were processed

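Intensity values of 6 arrays came, per the file headers and the submitters' processing notes, from the authors' run of Agilent Feature Extraction 11.0.1.1, which subtracts background and normalises the dyes of an array. The deposited value table holds log2 red processed signals minus 1 spike-in offset per array, as a comparison with the scanner files showed. The authors' deposited table lists for every name a p-value, its adjusted form and a log2 fold change. The sources used here do not name the test behind the p-value. For linking, p was computed from the value table with an unpaired t-test that assumes equal variances. Names were linked to probes where fold change (within 1e-09) and this p (within 1e-07) matched. Each of the 2380 names matched 1 of 557616 probe sets. The authors' p-values therefore equal those of that t-test to within 1e-07. The 8555 probes that stayed unnamed were tested only where they passed the filter given below. Of 10935 named RNAs and unnamed probes, 2356 were tested in the CLIP level, 3727 in the supernatant level and 3971 in the ratio. The 6 members, the comparison classes and the marker lists were chosen with earlier results of these data known.

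Outlier spots were left out and probes averaged per RNA. CLIP and supernatant levels were scaled by the 75th percentile of those RNAs that were detected above background on every array (550 in red, 1703 in green). Ratios were centred on each array's median over the RNAs that pass the filter. RNAs well above background on at least 3 arrays (for the ratio, in either channel), with 2 values per genotype, were tested with limma 3.58.1 (R 4.3.3), with a mean for each genotype. An adjusted p (Benjamini-Hochberg) under 0.05 counted as passing. The need for 2 values, the RNAs used for centring and the RNAs used for array weights were settled after first fits had been seen, and the other choices were run as alternatives. The normexp alternative used median spot signals with an offset of 50. The number of arrays limits the precision, and p-values measure the spread between these samples, which may be technical. In the CLIP level limma used the same variance for all RNAs tested, so an RNA's own spread did not enter its p-value or interval. The standard error there was 1.04 for every member but Snora35, which lacked the WT 2 value and had 1.16. All members were named in full; other RNAs were named for likeness of profile or a shared host gene. The fits were also run on simulated data with independent errors of equal spread and no scan effect. That run says nothing about the effect of the scans here.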

Additional observations from a re-analysis of the deposited data

How the results depend on the processing

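None of the 6 snoRNAs passed an adjusted p of 0.05 in any of 96 alternative fits, where their 534 limma adjusted p-values lay between 0.0546 (Snora35, CLIP level, array weights) and 1. Snora35 stayed below the median RNA in CLIP and supernatant under all alternatives that gave a value; with scan as a fixed block it has none, since WT 2 is left out. Of 29 member results, 9 kept their sign throughout. The number of RNAs called in the CLIP level, 0 as reported, was 5 with normexp, 36 with array weights (0 when weighted over all RNAs), 13 with scan as a random block, 2 when 1 value per genotype was allowed, and 0 to 4 without 1 array (4 without WT 3). Within PS19, 4 as reported, it was 0 with normexp, with the filter on all 6 arrays or with a variance trend, 2 with the random block and 2 to 4 without 1 array (2 without PS19 2 or WT 3). Within WT, 3 as reported, all above 0, it was 3 with normexp, all below 0, and 0 with the filter on all 6 arrays or a variance trend and 0 to 3 without 1 array (0 without WT 2 or WT 3). The supernatant and the ratio between genotypes stayed at 0 throughout.

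These signs turned, as log2 values; the cause was not tested. CLIP difference: Snora21 -0.54 with array weights and -0.040 with weights from all RNAs; Snora33 0.29 with no filter, 0.15 with the random and 0.16 with the fixed scan block; Snora57 -0.88 and Snora65 -0.93 with array weights; Snora7a 0.060 with the fixed scan block. Supernatant difference: with the fixed scan block Snora21 0.069, Snora33 0.26, Snora57 0.38 and Snora65 -0.042, with the random block Snora57 0.14, and with normexp Snora65 -0.20. Ratio difference: Snora35 0.17 with no centring, 1.15 with normexp, 0.11 with outlier spots kept and 0.24 centred over all RNAs. Snora65 was 0.12 with no centring, 0.39 with normexp, 0.18 centred over all RNAs and 0.28 with the fixed scan block, where Snora33 was -0.10 and Snora7a 0.40. Ratio within WT: with no centring, normexp and centring over all RNAs, Snora21 was -0.059, -0.67 and -0.15, Snora35 -0.079, -0.76 and -0.18, and Snora65 -0.036, -0.30 and -0.13. There Snora35 was -0.024 with outlier spots kept and Snora57 0.025 with the random block.

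Without 1 array, the CLIP difference ran from -0.33 to 0.53 for Snora21, -0.98 to 0.62 for Snora33, -0.49 to 1.17 for Snora57, -0.69 to 1.60 for Snora65 and -2.91 to 0.14 for Snora7a. The supernatant difference ran from -0.68 to 0.29 for Snora21, -0.96 to 0.76 for Snora57 and -0.26 to 1.29 for Snora65. The ratio difference ran from -0.43 to 0.17 for Snora35, -0.34 to 0.34 for Snora65 and -1.46 to 0.20 for Snora7a. Within PS19 it ran from -0.20 to 0.40 for Snora35 and -0.013 to 0.14 for Snora65. Within WT it ran from -0.63 to 0.22 for Snora33, -0.11 to 0.029 for Snora57 and -0.27 to 0.41 for Snora65.

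With the replicate number as a block, 0 RNAs were called in each comparison between genotypes and Snora35 differed by -3.46 in CLIP and -3.68 in the supernatant. Deviations of samples with the same number correlated by -0.515 to 0.464. Samples with the same number were never in the same scan, so these correlations cannot decide whether the numbers pair the samples. The labels do not say either. Snora33, Snora57, Snora65 and Snora7a were near background on some arrays, so their differences are poorly measured there. Outlier handling, centring over all RNAs, 1 value per genotype and weights from all RNAs were alternatives chosen after seeing the data.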
